A study of Homo sapiens with 22 samples.

Results

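The regions described here are promoters of long noncoding RNA (lncRNA) genes that lie away from protein-coding genes. The members were the annotated 5′ ends of GENCODE release 44 lncRNA genes on chromosomes 1 to 22 that lay more than 10 kb from every protein-coding gene body in the human genome build hg38. These were 7711 of 18390 lncRNA 5′ ends (41.9%), and of 37501 lncRNA and protein-coding 5′ ends in all. The member closest to the limit was ENSG00000285100, which lay 10006 bp from KIAA1755, and the nearest excluded gene was LINC03048, which lay 9993 bp from BAHCC1. Most members have been given no name: 5336 carried only an Ensembl identifier, 1827 a LINC symbol, 88 an antisense symbol and 49 the symbol of a miRNA host gene.

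The data are transposon insertions mapped by Calling Cards in K562, an established human cell line from chronic myeloid leukemia. Cells received a barcoded piggyBac self-reporting transposon with a puromycin resistance gene (5 ug of donor plasmid) and 5 ug of a plasmid for the transposase, called the helper, which was WTHYPB (hyPBase) in 10 libraries and hyPBase-centrip in the other 10. Selection lasted 11 days under 2 ug/ml puromycin, and transfections were combined in sets of 3. The labels do not settle whether every library came from transfections of its own, so each p-value below measures the spread between libraries, which may be technical. The genotype and the treatment other than the helper were the same in all 20 libraries, and cells given the donor alone were not analysed here.

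lncRNA genes are transcribed by RNA polymerase II from promoters much like those of protein-coding genes, but their transcripts are usually less abundant and more restricted to particular cell types. Some act in cis near their own promoter, some act elsewhere in the nucleus or cytoplasm, and for many no function is known. The piggyBac transposase inserts at the tetranucleotide TTAA, and its insertions are not spread evenly over the genome but are commoner in open, active chromatin.

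Each library held between 1509672 and 3596762 insertions, with a median of 2671548, and between 3.25% and 3.49% of the autosomal insertions lay within 5 kb of a member. Every autosomal insertion lay on a TTAA of hg38. An entry is a position, an orientation and a donor barcode, and each library held 26 barcodes with no entry listed more than once. A single TTAA could thus be recorded at most 52 times in a library. The barcodes were uneven, and the rarest held between 6.15e-05% and 0.000542% of the entries of a library, so few sites could carry all 26. The most-hit site in the member windows held between 37 and 41 entries per library, so counts at the hottest sites can be understated. Libraries with fewer insertions gave larger folds: promoter density over the intergenic level (defined below) and library size correlated with Pearson r = -0.867 (adjusted permutation p = 0.00611) and Spearman rho = -0.733 (adjusted permutation p = 0.0203) over the 10 hyPBase libraries. Over the 10 hyPBase-centrip libraries r was -0.875 (adjusted permutation p = 0.00262) and rho was -0.83 (adjusted permutation p = 0.0192), out of 4 relations computed. Without the 2 libraries farthest from the median size r was -0.622 and -0.663. hyPBase-centrip replicate 3, with 1638175 insertions the smallest of its helper, stood apart at 6 of the 20 densest loci and is given separately where it does.

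The promoters below show the 2 kinds of sequence among the members, and are given because the density of insertions differed between them. They cover 250 bases before and 50 bases from the 5′ end on the strand of the gene, in hg38, with CG dinucleotides in capitals. ENSG00000285838, the densest of all members, has a CpG-poor promoter (chr6:68040040-68040339, plus strand). ZNF767P is a transcribed zinc finger pseudogene (chr7:149624703-149625002, minus strand) and was the only CpG-rich promoter among the 20 densest loci. MALAT1, an abundant nuclear lncRNA found at splicing speckles (chr11:65497390-65497689, plus strand), and MIR17HG, the host transcript of the miR-17-92 cluster (chr13:91347436-91347735, plus strand), are CpG-rich as well.
ENSG00000285838: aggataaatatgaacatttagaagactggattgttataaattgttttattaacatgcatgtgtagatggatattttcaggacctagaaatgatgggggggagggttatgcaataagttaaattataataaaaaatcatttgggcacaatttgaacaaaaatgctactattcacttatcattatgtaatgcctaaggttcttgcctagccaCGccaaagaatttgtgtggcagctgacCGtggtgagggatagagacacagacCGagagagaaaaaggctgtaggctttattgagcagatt
ZNF767P: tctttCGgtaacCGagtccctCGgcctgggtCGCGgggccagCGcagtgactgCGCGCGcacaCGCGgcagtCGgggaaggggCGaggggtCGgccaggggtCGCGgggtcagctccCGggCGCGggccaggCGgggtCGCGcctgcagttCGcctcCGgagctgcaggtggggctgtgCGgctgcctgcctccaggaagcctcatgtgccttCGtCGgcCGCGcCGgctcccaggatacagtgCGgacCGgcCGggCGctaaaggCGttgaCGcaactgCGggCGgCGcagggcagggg
MALAT1: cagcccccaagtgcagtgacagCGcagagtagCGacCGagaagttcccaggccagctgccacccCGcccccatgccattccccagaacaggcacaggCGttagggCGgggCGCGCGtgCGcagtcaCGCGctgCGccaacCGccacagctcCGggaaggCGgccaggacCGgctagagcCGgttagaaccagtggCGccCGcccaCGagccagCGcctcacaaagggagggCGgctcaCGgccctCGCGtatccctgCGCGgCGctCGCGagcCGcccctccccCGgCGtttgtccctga
MIR17HG: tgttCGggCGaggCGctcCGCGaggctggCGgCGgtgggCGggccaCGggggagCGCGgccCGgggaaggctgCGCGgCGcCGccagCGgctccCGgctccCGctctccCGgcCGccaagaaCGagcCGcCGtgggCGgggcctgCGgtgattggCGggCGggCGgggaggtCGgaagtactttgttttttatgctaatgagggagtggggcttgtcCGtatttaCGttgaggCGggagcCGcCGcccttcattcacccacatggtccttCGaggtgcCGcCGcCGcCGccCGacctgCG
The first sequence holds 3 CG dinucleotides, 2 TTAA sites and 36.7% G or C, whereas the other 3 hold 39, 34 and 42 CG dinucleotides, no TTAA and between 71.7% and 74.7% G or C. At these 3 promoters no insertion could be recorded within the stretch shown, and those counted came from TTAA sites beside it.

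The most-hit TTAA in each of the 6 densest loci is shown next with 30 bases on each side, on the strand of the lncRNA, as examples of sites that were hit again and again. Capitals mark the TTAA counted, and other TTAA nearby are left in lower case.
ENSG00000285838, chr6:68042729-68042792: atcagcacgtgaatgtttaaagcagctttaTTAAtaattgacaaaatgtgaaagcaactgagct
ENSG00000266976, chr19:28605925-28605988: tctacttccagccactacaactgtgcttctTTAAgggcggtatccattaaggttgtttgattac
ENSG00000229618, chr7:12722996-12723059: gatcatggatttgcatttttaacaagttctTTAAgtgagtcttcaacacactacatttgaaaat
ENSG00000287557, chr6:67890821-67890884: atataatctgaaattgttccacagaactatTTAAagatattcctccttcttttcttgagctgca
ENSG00000286251, chr4:126732819-126732882: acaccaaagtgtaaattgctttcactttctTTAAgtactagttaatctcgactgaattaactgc
ENSG00000232884, chr21:14762752-14762815: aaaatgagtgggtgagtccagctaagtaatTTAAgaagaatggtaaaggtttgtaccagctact
All 6 sites were hit in all 20 libraries. The site at ENSG00000285838, 2470 bp downstream of the 5′ end, held 28 to 38 insertions per hyPBase library (median 36) and 34 to 40 per hyPBase-centrip library (median 38). The site at ENSG00000266976, 732 bp upstream, held 34 to 41 (median 36.5) and 35 to 41 (median 38.5). Totals over the 20 libraries lay between 605 and 751 for the 6 sites. The ceiling of 52 in each library is nominal, because the barcodes were uneven.

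The bases beside TTAA went with the number of insertions across the member windows. Over the 423733 TTAA sites there, each counted once, TTTAAA made up 17.6% of sites and received 28.3% of insertions, or 1.61 times the mean of all sites in hyPBase libraries (range 1.60 to 1.63) and 1.60 times in hyPBase-centrip libraries (1.59 to 1.62). CTTAAA and its reverse complement TTTAAG came next at 1.31 times (1.29 to 1.34) and 1.32 times (1.29 to 1.38). At the other end, GTTAAC received 0.105 times the mean with either helper (0.0906 to 0.116 and 0.0929 to 0.112), and GTTAAG with its reverse complement CTTAAC 0.334 and 0.339 times. The ranges of these 4 classes over libraries did not overlap, and sites of a class also share base composition, which was not separated here.

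Insertions were concentrated at the lncRNA 5′ ends. Promoter density is the number of insertions per TTAA within 1 kb of the 5′ ends, and the flank is the level 3 to 5 kb away on either side. The promoter over flank fold ranged from 1.72 to 1.90 in hyPBase libraries with a median of 1.77 and a mean of 1.78 ± 0.053 (SD, n = 10; two-sided exact sign-flip permutation test, adjusted p = 0.00211). In hyPBase-centrip libraries it ranged from 1.72 to 1.93, with a median of 1.77 and a mean of 1.79 ± 0.060 (SD, n = 10; exact permutation test, adjusted p = 0.00211). The unadjusted p of 0.00195 is the smallest that 10 libraries allow, and the fold was above 1 in 10 of 10 libraries with each helper. The libraries sample the same loci, so these tests speak of libraries and not of a wider set of promoters.

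Against the intergenic level, which is the mean over all 8821670 autosomal TTAA sites more than 10 kb from protein-coding genes, promoter density was 3.03 ± 0.096-fold with hyPBase (range 2.93 to 3.25, median 3.01, n = 10) and 3.04 ± 0.13-fold with hyPBase-centrip (range 2.92 to 3.38, median 3.01, n = 10), with an adjusted exact permutation p of 0.00211 for each. Levels were already 1.75-fold and 1.76-fold 5.0 to 4.5 kb upstream, peaked at 3.57-fold and 3.63-fold in the first 500 bp downstream, and were back at 1.69-fold at the far downstream end. When the level within 500 kb of each member was used in place of the intergenic mean the fold was 2.03 and 2.04. The 273 densest members, described below, carried a large part of this: without them the fold was 1.63 and 1.68, and promoter over flank was 1.39 and 1.41. With each position and orientation counted once per library, so that barcodes add nothing, the fold over the intergenic level was 1.93 and 1.91 and promoter over flank 1.29 and 1.28, still above 1 (exact permutation test, p = 0.00195 for each). Given equal weight, the members averaged 3.40-fold and 3.44-fold over the intergenic level. The median member was lower. Over the whole 10 kb window, members with at least 20 TTAA sites had a median of 1.62 insertions per TTAA. The intergenic level was 1.97 insertions per TTAA, both summed over the 20 libraries.

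**Figure D1:**
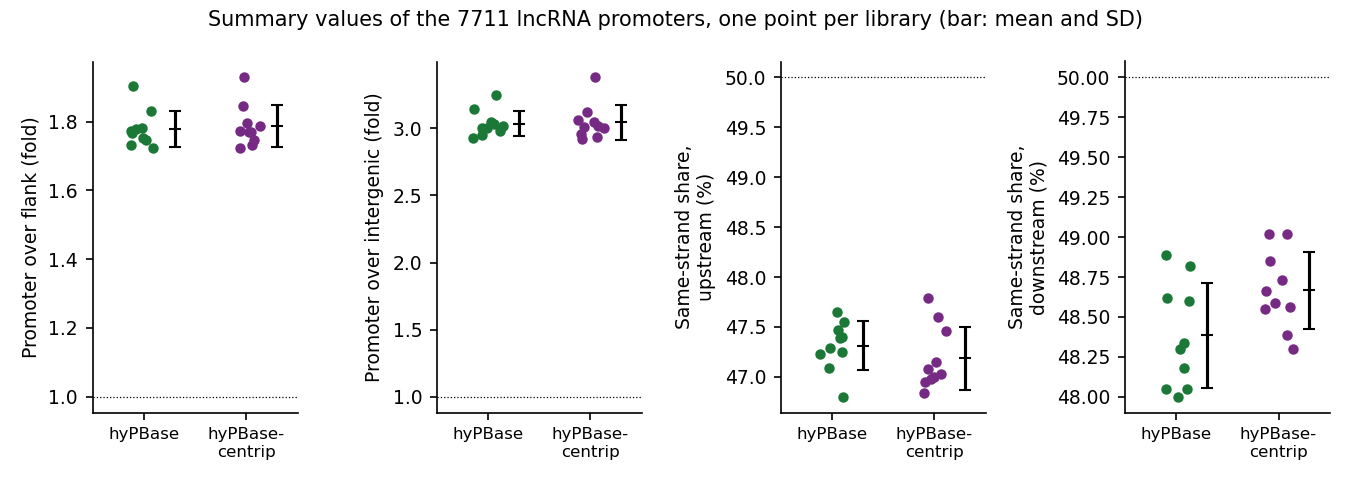
Each point is a library (10 per helper) and bars give the mean and SD; the panels show promoter density over the flank and over the intergenic level (fold, dotted line at 1) and the percent of upstream and downstream insertions recorded on the lncRNA strand (dotted line at 50). All folds lie above 1, from 1.72 to 1.93 and from 2.92 to 3.38, and all shares lie below 50%; the y axes do not start at 0.

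Density fell with distance from protein-coding genes, whereas the local peak did not. The 2911 members 10 to 50 kb away had a promoter density of 4.33-fold over the intergenic level with hyPBase (range 4.17 to 4.65), the 2678 members 50 to 200 kb away 2.89-fold (2.78 to 3.09), and the 2122 members farther than 200 kb away 1.94-fold (1.87 to 2.08). The 3 classes did not overlap in any library, and hyPBase-centrip gave 4.40, 2.90 and 1.90. Promoter over flank in the same classes was 1.78, 1.71 and 1.91 with hyPBase and 1.80, 1.72 and 1.91 with hyPBase-centrip. Over all members slightly more insertions lay downstream than upstream over 5 kb on each side, by 1.10 ± 0.0076-fold with hyPBase and 1.09 ± 0.0077-fold with hyPBase-centrip (SD, n = 10; exact permutation test, adjusted p = 0.00211 for each). This held for CpG-poor members, defined below, at 1.11-fold with each helper. CpG-rich members went the other way, at 0.981-fold with hyPBase (range 0.961 to 1.008) and 0.980-fold with hyPBase-centrip (range 0.937 to 1.002), below 1 in 9 of 10 libraries with each (exact permutation test, unadjusted p = 0.00586). Members with an antisense symbol were also below 1, at 0.942-fold and 0.940-fold.

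CpG-rich lncRNA promoters had the stronger peak. A 5′ end was called CpG-rich where the ratio of observed to expected CpG was at least 0.6 and the GC content at least 50% within 500 bp on each side, which held for 726 members (9.42%), for 29.2% of the lncRNA 5′ ends within 10 kb of a protein-coding gene and for 58.5% of protein-coding 5′ ends. Promoter over flank in the CpG-rich members ranged from 3.33 to 3.89 with hyPBase (mean 3.49) and from 3.25 to 3.82 with hyPBase-centrip (mean 3.48), and in the 6985 CpG-poor members from 1.61 to 1.77 (mean 1.67) and from 1.61 to 1.80 (mean 1.67). The CpG-rich fold was 2.09 and 2.08 times the CpG-poor fold, in 10 of 10 libraries with each helper (exact sign-flip permutation test, adjusted p = 0.00211). Over the intergenic level CpG-rich members stood at 7.43-fold and 7.49-fold and CpG-poor members at 2.77-fold and 2.78-fold.

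**Figure D2:**
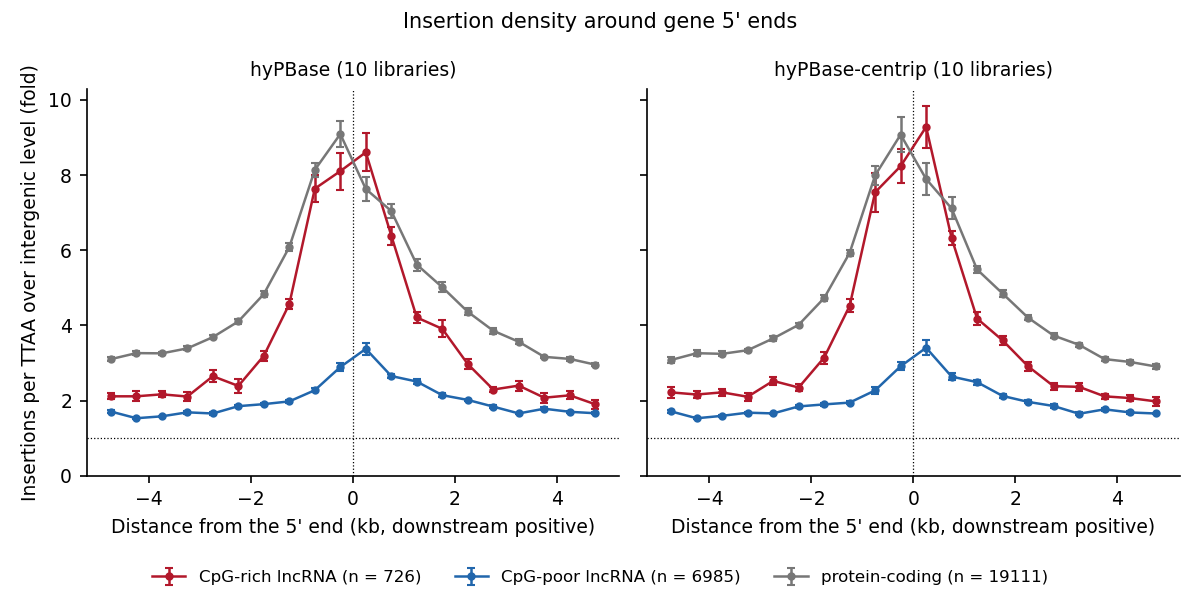
Insertions per TTAA over the intergenic level (fold, y) in 500-bp bins against distance from the 5′ end (kb, x) for CpG-rich lncRNA, CpG-poor lncRNA and protein-coding 5′ ends, one panel per helper; points are means and bars SD over 10 libraries, and the dotted horizontal line is the intergenic level. CpG-rich lncRNA promoters rise from 2.12-fold and 2.22-fold at the far upstream end to 8.61-fold (hyPBase) and 9.28-fold (hyPBase-centrip) in the first 500 bp downstream, and CpG-poor promoters form a lower peak.

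The lncRNA promoters were less dense than protein-coding ones. Members had 0.379 times (hyPBase) and 0.380 times (hyPBase-centrip) the promoter density of protein-coding genes, and 0.584 and 0.589 times that of lncRNA promoters near protein-coding genes. Each difference had the same direction in 10 of 10 libraries (exact permutation test, adjusted p = 0.00211). Within CpG-rich 5′ ends members had 0.643 and 0.649 times the protein-coding density, and within CpG-poor 5′ ends 0.588 times with either helper.

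The height of the peak over its own flank depended on the CpG class. Over all 5′ ends the promoter over flank fold of members was 0.717 and 0.710 times that of protein-coding genes (adjusted exact permutation p = 0.00211). Within CpG-rich 5′ ends the direction turned, to 1.08 and 1.06 times, and within CpG-poor ones it was 0.954 and 0.951 times, each with an adjusted exact permutation p of 0.00211. Against lncRNA promoters near protein-coding genes the ratio was 0.985 and 0.986 over all (adjusted exact permutation p = 0.0139 and 0.0101), but 1.08 and 1.07 within CpG-rich and 1.19 and 1.19 within CpG-poor 5′ ends (adjusted p = 0.00211 for each), and 1.001 and 1.01 over all when at least 2 reads per insertion were asked for. The classes hold different shares of the 3 gene groups, so the pooled ratio mixes them.

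Orientation is given as the strand that the files record for an insertion, compared with the strand of the lncRNA gene. The sources used here do not state which end of the transposon that strand refers to. Over all members the same-strand share downstream ranged from 48.0% to 48.9% with hyPBase (mean 48.4 ± 0.33%, SD, n = 10) and from 48.3% to 49.0% with hyPBase-centrip (mean 48.7 ± 0.24%, n = 10), and upstream from 46.8% to 47.7% (mean 47.3 ± 0.24%) and from 46.8% to 47.8% (mean 47.2 ± 0.32%). All 4 shares were below 50% in 10 of 10 libraries (exact permutation test against 50%, adjusted p = 0.00211). Downstream exceeded upstream by 1.08 ± 0.50 and 1.48 ± 0.39 percentage points (adjusted exact permutation p = 0.00211 for each), but this rested on dense loci: without the 1% of members with the most insertions it was -0.171 and 0.355 points.

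Protein-coding promoters were far more skewed. Their downstream same-strand share was 32.2% with hyPBase (range 31.1 to 33.5) and 33.9% with hyPBase-centrip (range 33.3 to 35.0), 16.2 and 14.8 points below that of the members, in 10 of 10 libraries (exact permutation test, adjusted p = 0.00211). Matching the CpG class left 15.7 and 15.0 points within CpG-rich 5′ ends and 9.85 and 9.22 points within CpG-poor ones. lncRNA promoters near protein-coding genes lay on the other side, with 54.7% and 55.3% downstream and 61.5% and 60.4% upstream.

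Pooled over CpG-rich members, orientation changed at the 5′ end itself. Their same-strand share was 36.0 ± 1.6% with hyPBase and 35.3 ± 1.6% with hyPBase-centrip in the 500 bp before the 5′ end, and 55.9 ± 1.9% and 56.3 ± 1.9% in the 500 bp after it (SD over 10 libraries). Protein-coding 5′ ends moved from 30.3 ± 0.96% and 29.8 ± 0.79% to 37.1 ± 0.45% and 37.2 ± 0.34% over the same 2 bins. CpG-poor members stayed between 45.0% and 50.3% in every 500-bp bin. These bins are descriptions and were not tested. The 2 CpG-rich bins held 813 and 682 TTAA sites over 726 members. Their shares are pooled over insertions, so dense loci weigh more, and the SD does not cover the spread between loci. Over the whole 5 kb downstream the CpG-rich share was 44.6% and 46.0%, 4.29 and 3.04 points below the CpG-poor share of 48.9% and 49.0% (exact permutation test, adjusted p = 0.00211). Farther downstream the CpG-rich share was lowest at 34.3% and 37.6%, in the bin from 3000 to 3500 bp, and was 40.4% and 41.6% in the last 500 bp of the window.

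**Figure D3:**
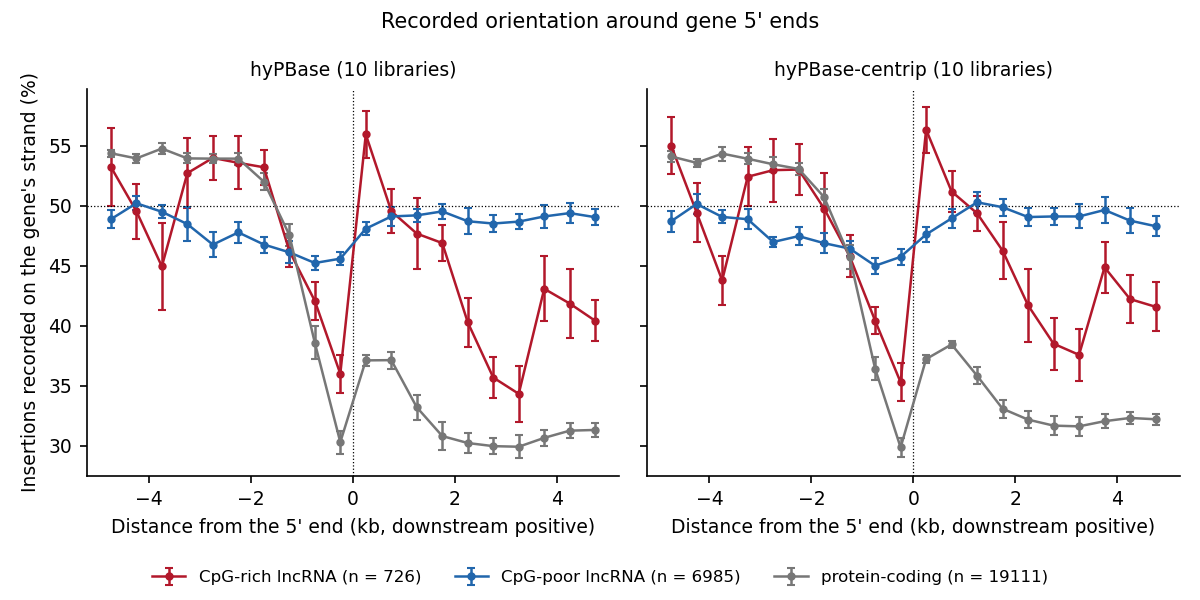
Percent of insertions recorded on the strand of the gene (y, axis not from 0) in 500-bp bins against distance from the 5′ end (kb, x), one panel per helper; points are means and bars SD over 10 libraries, and the dotted horizontal line marks 50%. CpG-rich lncRNA promoters step from 36.0% and 35.3% just before the 5′ end to 55.9% and 56.3% just after it, CpG-poor ones stay between 45.0% and 50.3%, and protein-coding genes fall from 37.1% and 37.2% just after the 5′ end to 31.3% and 32.2% at the far end.

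A mean near 50% did not come from loci that were each near 50%. Among the 1808 members with at least 100 downstream insertions over the 20 libraries, the median same-strand share was 48.6%, yet 551 (30.5%) lay below 40% and 475 (26.3%) above 60%. For 8305 protein-coding 5′ ends the median was 27.7%, with 64.7% below 40% and 12.5% above 60%. The 49 miRNA host genes, whose transcripts are cut to release miRNAs, had a lower share than the members as a whole: 32.6% downstream with hyPBase (range 29.9 to 35.2) and 33.3% with hyPBase-centrip (range 29.8 to 38.1). Upstream their share was also low, at 35% and 35.25%. These shares are pooled over insertions, so a few dense hosts weigh more, and they do not describe each of the 49 genes. The class was not tested against others.

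Single CpG-rich loci went in opposite directions. MALAT1 had 73.7% of 3865 downstream insertions and 46.5% of 2423 upstream insertions on its own strand. In contrast SLC38A4-AS1 (chromosome 12, 5′ end at 46383433, plus strand, 10660 bp from SLC38A2) had 8.65% of 2970 downstream and 34.5% of 2608 upstream insertions on its strand. ENSG00000291107 (chromosome 12, 5′ end at 9648047, plus strand) had 2.14% of 1679 downstream insertions, and MIR17HG 19.6% of 1505, on the strand of the gene. These 4 are among the 10 CpG-rich members with the most downstream insertions, and were singled out after their values were seen.

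A small set of loci held much of the signal. Density over the 10 kb window was compared for the 7445 members with at least 20 TTAA sites (266 had fewer). The mean was 4.49 insertions per TTAA over the 20 libraries and the median 1.62, and 79.3% of members lay below the mean. At least 5 times the mean was reached by 273 members, or 3.67%. The same density was reached by 7.18% of all lncRNA and protein-coding 5′ ends with enough TTAA sites and by 8.17% of those that are not members. The shares were not tested against each other. At 3 times and 10 times the mean the counts were 508 and 110. Just above the limit lay CHROMR at 5.00 times the mean and just below it LINC00868 at 4.98 times.

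These 273 members fell into 229 separate regions once overlapping windows were joined. With sites shared by overlapping windows counted in each, they held 40.3% of the insertions in tested windows on 3.32% of the TTAA sites. Of them 44 (16.1%) were CpG-rich, against 9.31% of all tested members, so most of the dense loci were CpG-poor. Dense loci were commoner near protein-coding genes, with 5.66% of the members 10 to 50 kb away, 3.01% of those 50 to 200 kb away and 1.85% of those beyond 200 kb. The next values follow in part from the choice of the 273 by density in these same libraries, and are descriptions. The median density of the 273 was 7.41 times the level within 500 kb, compared with 0.741 times for all tested members. At least 5 times over that local level stood 191 of the 273. All 273 exceeded the member mean in each of the 20 libraries and 202 exceeded 5 times that mean in each. When loci were chosen in hyPBase libraries alone, 265 of 276 also reached 5 times the mean in the hyPBase-centrip libraries, and the lowest of the 276 stood at 4.19 times.

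**Figure D4:**
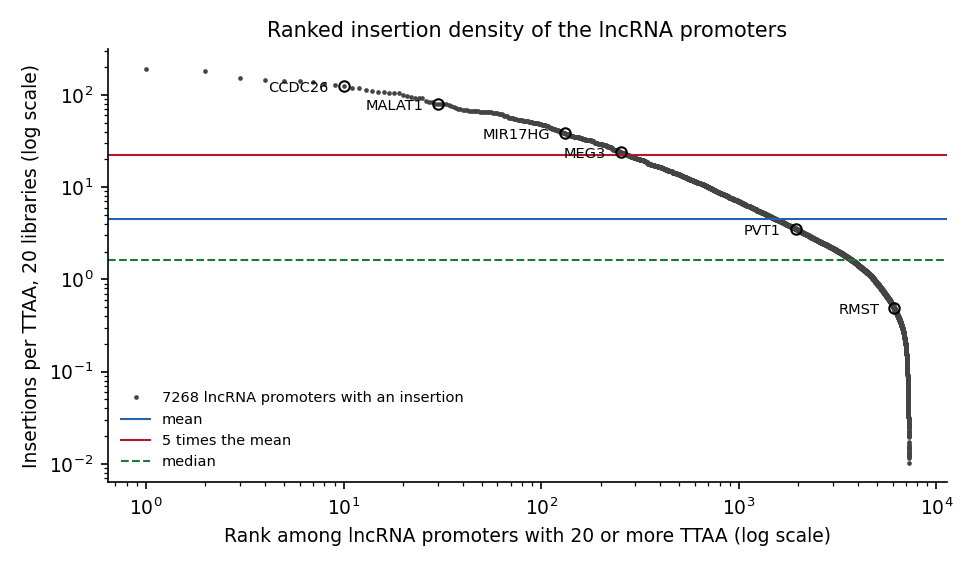
Insertions per TTAA within 5 kb of the 5′ end, summed over 20 libraries (y, log scale), against rank among lncRNA promoters with at least 20 TTAA sites (x, log scale); circles mark named lncRNA genes and lines give the mean, the median and 5 times the mean. The curve falls from 191 at the first rank to below the mean of 4.49 for 79.3% of loci, and the 177 tested loci without an insertion cannot be drawn on a log scale.

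The densest member was ENSG00000285838 (chromosome 6, 5′ end at 68040290, plus strand), which lay 595 kb from ADGRB3, the nearest protein-coding gene. Its density over the intergenic level was 87.6 to 120.5 with hyPBase (median 99.5) and 82.6 to 115 with hyPBase-centrip (median 99.02), on 15117 insertions at 78 of 79 TTAA sites. Pooled over libraries this was 42.6 times the member mean and 28.8 times the local level. A second locus on the same chromosome, ENSG00000287557 (5′ end at 67888977, plus strand), held 8177 insertions and stood at 32.5 times the mean, with 24.8% of its insertions between 1500 and 2000 bp downstream.

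ENSG00000266976 (chromosome 19, 5′ end at 28606688, plus strand), 599 kb from UQCRFS1, came second at 41.0 times the mean. Its fold over the intergenic level was 87.0 to 120.0 with hyPBase (median 94.3) and 79.2 to 132 with hyPBase-centrip (median 89.9). The value of 132 came from hyPBase-centrip replicate 3, and the other 9 libraries of that helper lay between 79.2 and 95.2. Here 29.9% of insertions fell in the bin 1000 to 500 bp upstream. On chromosome 4, ENSG00000286251 (5′ end at 126735523, minus strand, 888 kb from INTU) stood at 31.3 times and ENSG00000289869 (5′ end at 126778414, minus strand) at 23.3 times the mean.

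Other dense loci lay nearer to protein-coding genes. ENSG00000232884 (chromosome 21, 5′ end at 14763259, minus strand) lay 104 kb from SAMSN1, an adaptor protein of hematopoietic cells, and stood at 30.4 times the mean. CCDC26 (chromosome 8, 5′ end at 129683770, minus strand), a lncRNA gene studied in myeloid leukemia, stood at 27.9 times, with folds over the intergenic level of 60.7 to 74.8 with hyPBase (median 63.6) and 53.6 to 82.4 with hyPBase-centrip (median 62.1). The value of 82.4 came from hyPBase-centrip replicate 3, and the other libraries of that helper lay between 53.6 and 68.6. ENSG00000287393 (chromosome 6, 5′ end at 137903576, minus strand) lay 20.3 kb from TNFAIP3, an inhibitor of NF-kappaB signaling, and stood at 23.3 times the mean. Neighbourhood is a matter of distance only, and no expression was measured here.

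The 20 densest members with windows that do not overlap covered 9 chromosomes, 6 of them lying on chromosome 6, and 15 had no gene symbol. Each exceeded 5 times the member mean in 20 of 20 libraries, and the local fold ranged from 6.65 for LUADT1 to 37.7 for LINC03021 (chromosome 8). Both values follow in part from the choice of these loci by density in the same libraries, and are descriptions. Between 87.5% and 100% of their TTAA sites had been hit. The share of insertions on the lncRNA strand ranged from 29.5% at ENSG00000290071 to 69.1% at ENSG00000287973, and 15 of the 20 lay between 40% and 60%. The densest 500 bp lay within 1 kb of the annotated 5′ end at 8 of them. At ZNF767P 90.6% of the insertions lay between 1000 and 500 bp upstream, the narrowest of the set.

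**Figure D5:**
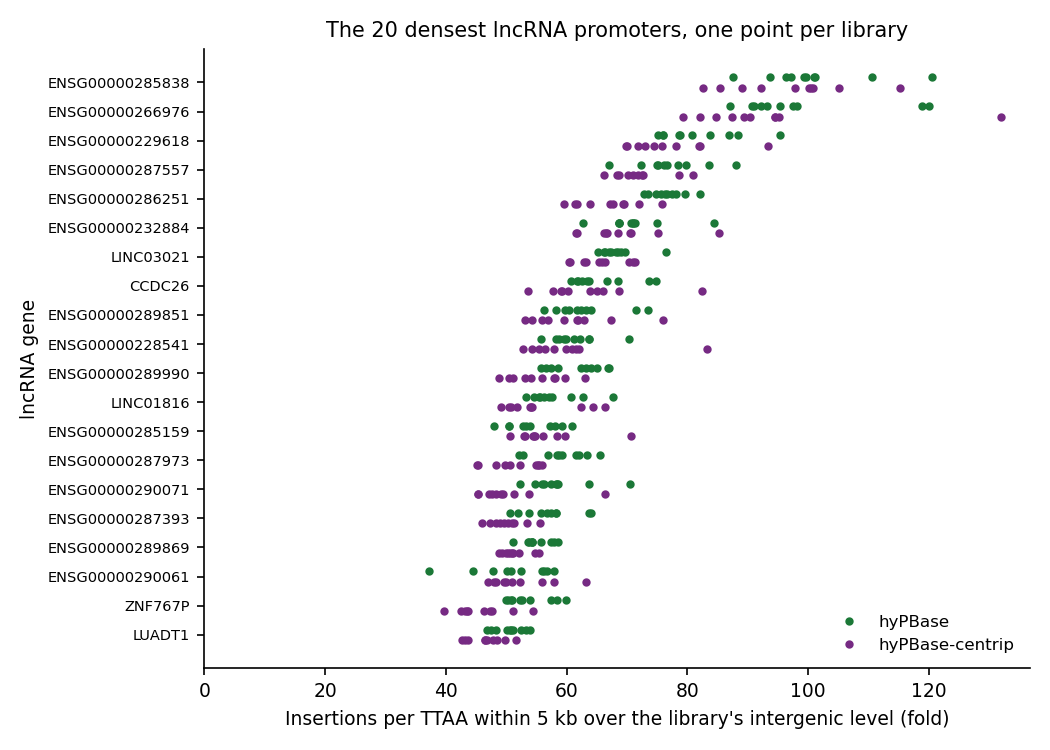
The 20 densest lncRNA promoters (y, in order of density) and the insertions per TTAA within 5 kb of each 5′ end over the intergenic level of the library (fold, x); each point is a library, green for hyPBase and purple for hyPBase-centrip. Folds run from 37.2 to 132, all above the intergenic level of 1, and the rightmost purple points at several loci are hyPBase-centrip replicate 3.

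Of a list of 65 well-known lncRNA genes, 30 were members, 27 lay within 10 kb of a protein-coding gene, 3 are annotated as protein-coding and 5 were not found under these symbols. The 30 members had a median of 8.13 insertions per TTAA, against 1.62 for all tested members. Above the member mean lay 18 of them, 12 did not exceed it, and 6 reached 5 times that mean. The list was put together with earlier results of these data known, and its counts are descriptions.

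MALAT1 (chromosome 11, 5′ end at 65497640, plus strand) was the highest of these after CCDC26, at 17.7 times the member mean. Its fold over the intergenic level was 33.1 to 47.9 with hyPBase (median 43.3) and 36.7 to 43.8 with hyPBase-centrip (median 39.1), and 24.2% of its insertions lay 1500 to 2000 bp downstream. The window of ENSG00000290061 (5′ end at 65493058, minus strand, 22.4 times the mean) overlaps that of MALAT1, so both share insertions. MIR17HG stood at 8.63 times the mean, with folds of 18.4 to 21.7 with hyPBase (median 20.9) and 12.9 to 20.5 with hyPBase-centrip (median 19.2). LINC02573 (chromosome 21, 5′ end at 20258820, minus strand) stood at 7.24 times with 28.4% of insertions in the first 500 bp downstream.

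At MIAT and MEG3 the insertions lay at the edge of the window. MIAT stood at 7.79 times the mean, but 46.6% of its insertions lay between 5000 and 4500 bp upstream. MEG3, an imprinted lncRNA gene expressed from the maternal allele, stood at 5.33 times with 42.2% of insertions between 4500 and 4000 bp upstream. Lower on the list, NORAD, which binds PUMILIO proteins in the cytoplasm, stood at 3.87 times and DANCR at 2.61 times. H19, an imprinted fetal lncRNA, had 0 insertions at the 11 TTAA sites of its window, which allows a density of up to 0.273 per TTAA (3 counts), below the member mean of 4.49.

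No insertion was recorded at 214 members (2.78%), of which 177 had at least 20 TTAA sites. The surroundings of 85 of these 214 were also sparse, with under 10% of the intergenic level within 500 kb. Chromosome 9 held 44, chromosome 21 held 27, chromosome 16 held 26 and chromosome 15 held 25 of them. On chromosome 9, 16 lay below 35 Mb, the first at 21.4 Mb. Copy number and the share of a region to which reads can be aligned were not available among the files used, and their part in these zeros was not tested.

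The helpers were compared in the summary values. Of 18 comparisons of hyPBase-centrip with hyPBase over all, CpG-rich and CpG-poor members, none of the 6 for all members passed after adjustment (two-sided permutation test with 100000 resamples, adjusted p from 0.203 to 0.943). Promoter over intergenic differed by 0.0042 on the log2 scale. In CpG-rich members the downstream same-strand share was 1.38 points higher with hyPBase-centrip, 46.0% against 44.6% (adjusted permutation p = 0.0274), and the difference of downstream and upstream was 2.35 points higher (-0.403 against -2.75 points, adjusted permutation p = 0.0274). With the replicate number as a block neither passed (adjusted exact permutation p = 0.082 for each).

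Locus by locus, few members differed between the helpers. A 5′ end was tested where 10 or more libraries held 10 or more insertions each. Among 16449 such 5′ ends edgeR called 2.09% at an adjusted p below 0.05, and of the 1915 members among them it called 37 (1.93%), a share near the background. With hyPBase-centrip 17 members rose, or 0.888% against a background of 0.547%, and 20 fell, or 1.04% against 1.54%. This balance moved with the setting: 17 rose and 9 fell with at least 2 reads per insertion, 33 and 22 with library size as a covariate, and 9 and 17 without the filter on low counts. Some windows overlap, and the 37 formed 33 separate regions. The changes were small, with a median size of 0.29 on the log2 scale. After rounding, the ranges of the 2 helpers met or overlapped at all 37. The same count was not made over all 5′ ends tested.

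Of the 20 members that fell, 15 stood at 5 times the member mean or more, and of the 17 that rose, 3 did. Over all 7445 members with at least 20 TTAA sites 273 (3.67%) reach that density. The share among the 1915 members tested here, which were filtered for insertions, was not computed, so neither count has its background. The 20 that fell had a median density of 11.1 times the member mean and the 17 that rose 2.19 times, against 1.64 times for all members tested. On the log2 scale the falls ran from -0.367 to -0.154 and the rises from 0.191 to 0.788. The part of the insertion count of a locus in whether such changes were called was not tested. hyPBase-centrip libraries were larger, with a median of 2779461 insertions against 2499131, and 26 barcodes limit the count of a site in each. With the log of library size as a covariate 55 members were called, and with each position and orientation counted once per library none of the 1510 members tested was called by edgeR (73 at an unadjusted p below 0.05). DESeq2 called 23 of the 1915 and gave no adjusted p for 11 of the 37. The part of library size and of the ceiling in the 37 calls was not tested further.

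The largest falls by adjusted p were at ENSG00000267052 (chromosome 7, 5′ end at 106598908, minus strand), which had 283 to 372 CPM (insertions scaled to library size) in hyPBase libraries (median 327) and 202 to 283 in hyPBase-centrip libraries (median 255), a log2 change of -0.35 ± 0.05 (SE, edgeR, adjusted p = 3.45e-07). The ranges overlapped at their ends. PPBPP2 (chromosome 4, 5′ end at 74055399, minus strand), a pseudogene in the CXCL chemokine cluster 16592 bp from CXCL3, had 747 to 948 CPM (median 831) and 656 to 777 (median 697), a log2 change of -0.22 ± 0.04 (SE, edgeR, adjusted p = 5.72e-05). UMLILO, a lncRNA described at the same cluster and 30217 bp from CXCL8, changed by -0.27 ± 0.06 (edgeR, adjusted p = 0.00129), ENSG00000286251 by -0.19 (adjusted p = 0.000441) and ENSG00000289452 by -0.23 (adjusted p = 0.00124). With at least 2 reads per insertion 3 of these 5 were no longer called by edgeR: PPBPP2 (adjusted p = 0.109), ENSG00000286251 (adjusted p = 0.0721) and ENSG00000289452 (adjusted p = 0.0864).

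The members that rose with the smallest adjusted p were led by ENSG00000274979 (chromosome 12, 5′ end at 69331882, minus strand), 16499 bp from LYZ, the lysozyme gene. It had 180.3 to 234 CPM with hyPBase (median 200.4) and 234 to 273 with hyPBase-centrip (median 255), a log2 change of 0.33 ± 0.05 (SE, edgeR, adjusted p = 1.28e-05). ENSG00000254084 changed by 0.62 (adjusted p = 0.000119), ENSG00000276121 by 0.49 (adjusted p = 0.00206), ENSG00000229986, which lies 21292 bp from the transcription factor gene ETS2, by 0.34 (adjusted p = 0.00286), and LINC01556 by 0.27 (adjusted p = 0.00395). In each of these 5 the median of the hyPBase-centrip libraries was above that of the hyPBase libraries and the ranges met or overlapped. With at least 2 reads per insertion ENSG00000276121 was no longer called by edgeR (adjusted p = 0.117). Within 1 kb of the 5′ end ENSG00000267052 and ENSG00000254084 alone of the 10 named loci were called, and 2 of the 10 were not tested there.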

How the data were processed

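The authors deposited, per library, a list of insertions with position, orientation, barcode and the count of reads behind each, in build hg38. The submitters' processing notes name Trimmomatic, BWA and SAMtools, with no role or version given in the sources used here. No read or quality filter was added. Analysis used 20 of 22 libraries; the labels of the other 2 disagree about their helper, and they are not used here. Samples were grouped by the helper named in their titles.

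Insertions, not reads, were counted at the TTAA sites of hg38, in windows of 5 kb on each side of 5′ ends, with Python 3.11.15, numpy 2.4.6 and pandas 2.3.3. Library totals ran from 1509672 to 3596762 insertions. They limit the precision, and values at single sites cover counting error only. Each summary value was computed per library and tested by exact sign-flip permutation within a helper, or by 100000 permutations between helpers, with Benjamini-Hochberg adjustment. Loci were compared between helpers on deposited insertion counts with edgeR 4.0.16 (quasi-likelihood, TMM, R 4.3.3) over all lncRNA and protein-coding 5′ ends, Benjamini-Hochberg adjusted over all tested. DESeq2 1.42.0 was an alternative. The edgeR fit was tested on simulated counts, and window counts were checked against direct counts in a library of the data. Alternatives covered read minimum, barcodes, window, background, distance, dense loci, libraries and tool. Sequences came from hg38.

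Named loci were the 20 densest members with windows that do not overlap and at least 20 TTAA sites, the 5 smallest adjusted p in each direction between helpers, and a list of well-known lncRNA genes. Members and lists were chosen with earlier results of these data known. Same-numbered libraries of the helpers did not vary together, with correlations from -0.034 to 0.041, and were not treated as pairs.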

Additional observations from a re-analysis of the deposited data

Results flagged for a closer look

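In 52 groups of 10 libraries, 8 held a value far from the others by Dixon's criterion, where chance gives about 1 group in 20. The groups reuse the same libraries, and most are the 20 densest loci, so they are not independent. A single odd library can be flagged in many of them, and 8 of 52 cannot be set directly against 1 in 20. Of the 8 values, 7 were the highest of their group and came from hyPBase-centrip replicate 3, which had 1638175 insertions and 2.29 reads per insertion. Its promoter density over the intergenic level was 3.38-fold, against 2.92 to 3.12 in the other 9 libraries. Its fold over the intergenic level was 132 at ENSG00000266976 (others 79.2 to 95.2), 93.3 at ENSG00000229618 (69.8 to 82.0), 82.4 at CCDC26 (53.6 to 68.6), 83.3 at ENSG00000228541 (52.8 to 62.1), 70.7 at ENSG00000285159 (50.6 to 59.7) and 66.5 at ENSG00000290071 (45.3 to 53.7). The remaining value was 76.5 at LINC03021 in hyPBase replicate 9 (others 65.2 to 69.8), which with 1509672 insertions was the smallest library of all. Both libraries hold fewer insertions than most of their group, and the part of this in the values was not tested.

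The helpers differed in 2 orientation values of CpG-rich members in the fit without pairing, but not past the threshold with the replicate number as a block (adjusted exact permutation p = 0.082 for each). Downstream insertions on the lncRNA strand made up 46.0% with hyPBase-centrip against 44.6%, a difference of 1.38 points, and the downstream share minus the upstream share differed by 2.35 points, each with an adjusted permutation p of 0.0274 without the block.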

How the results depend on the processing

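Counted as unchanged were 184 of 217 alternative values. The label covered values that kept their direction and their side of the threshold (unadjusted p of 0.05 for summary values), or stayed near the reported value. It also covered helper differences that changed sign but passed the threshold in neither setting. Without hyPBase-centrip replicate 3 the helper difference over all members went from 0.00651 to -0.00574 for promoter over flank (log2 scale). For promoter over intergenic it went from 0.0042 to -0.0126. The 184 and the 217 both include the alternative limited to GENCODE level 1 or 2, which holds the same members and could not change. The excess of the same-strand share downstream over upstream was least stable. With hyPBase it was 0.0856 points with positions counted once per library, 0.382 with equal weight per member, -0.171 without the 1% of members with the most insertions and -0.583 without members at 5 times the mean or more (-0.0303 with hyPBase-centrip). Equal weight and the last exclusion were chosen after seeing the data. Counting each position once over the pooled libraries of a helper brought promoter over flank to 1.04 (hyPBase) and 1.03 (hyPBase-centrip), promoter over intergenic to 1.27 and 1.26, downstream over upstream to 1.02 and 1.02, the downstream share to 48.1% and 48.3%, the upstream share to 48.2% and 48.4% and their difference to -0.178 and -0.152. With all 20 libraries of both helpers pooled, 50.7% of a member's sites had been hit on average. At most 1.97 times the mean was then possible and 0 loci could reach 5 times. Against protein-coding genes promoter over flank turned to 1.08 and 1.06 within CpG-rich 5′ ends, and against nearby lncRNA genes to 1.08 and 1.07 within CpG-rich, 1.19 and 1.19 within CpG-poor 5′ ends and 1.001 and 1.01 with at least 2 reads. Loci at 5 times the mean numbered 164 with positions counted once per library and 30 of 731 testable within 1 kb. Helper calls numbered 8 within 1 kb, 0 with positions counted once (73 members at an unadjusted p below 0.05) and 23 with DESeq2. Without hyPBase-centrip replicate 3 the helper difference in the downstream share fell to 0.242 points (permutation p = 0.0793) and that of CpG-rich members upstream to -0.643 (permutation p = 0.0668); neither had passed adjustment. Where no construction is named, the cause was not tested.

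Library numbers did not pair the samples. With the replicate number as a block edgeR called 37 members, 19 higher and 18 lower, and 1 of 10 libraries correlated best with its own number. Under the block the 2 helper differences in the orientation of CpG-rich members, 1.38 and 2.35 points, had unadjusted exact permutation p of 0.00586 and 0.0137 and no longer passed over 18 comparisons (adjusted p = 0.082 for each). All members are GENCODE level 1 or 2, so that alternative is identical. TTAA sites outside repeats were not run, because repeats are not marked in the reference used here. The ceiling of 52 entries per site and the library totals limit the values at the densest loci, and sites in regions to which reads align poorly were not separated.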

Other observations

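Short sequence motifs within 500 bp of the 5′ end were counted on both strands, as descriptions. The GC box GGGCGG was present at 40.7% of the members at 5 times the mean density or more, 38.5% of those at 1 to 5 times, 22.7% of those below the mean and 72.2% of protein-coding 5′ ends. The ETS motif CCGGAA was present at 24.5%, 20.9%, 13.9% and 37.4% of the same 4 groups, and the AP-1 motif (TGACTCA or TGAGTCA) at 21.6%, 21.1%, 17.8% and 10.8%. AGATAA, the motif of the erythroid factor GATA1, was present at 44.3%, 40.1%, 48.2% and 26.2%, so it was not commoner at the dense loci than at members below the mean. CACGTG was present at 17.6%, 16.7%, 11.8% and 18.1%, and TGACGTCA at 2.2%, 1.82%, 1.08% and 3.22%. CCAAT and TATAAA were commoner below the mean, at 78.4% and 52.9%, than at the dense loci, at 71.4% and 42.9%. The groups differ in base composition: the median GC content of these windows was 48.6%, 48.9%, 44.1% and 59.3%, and the part of composition in the motif shares was not tested.

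Members with an antisense symbol (88) had a promoter density of 6.46-fold over the intergenic level with hyPBase (range 5.87 to 7.34), and 10 of 85 tested (11.8%) stood at 5 times the mean density or more. Members with a LINC symbol had 2.88-fold (2.79 to 3.02) and 57 of 1772 (3.22%), and members without a symbol 2.92-fold (2.81 to 3.15) and 183 of 5154 (3.55%). These groups were not tested against each other.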
